A study of Mus musculus with 14 samples.

Results

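Stratified squamous epithelium lines the skin, tongue, esophagus and mouse forestomach, and 47 genes known for this epithelium were followed across mouse lungs with and without mechanical ventilation. A gene was taken where a probe of the array carried its current or older symbol, with the brightest probe standing for the gene. By this rule 42 of the 47 genes were measured, among 13923 genes named by a probe, and no probe named Krt6b, Sprr2e, Sprr2i, Dsg3 or Krtdap. The list was chosen by measured values, since it was drawn up knowing that many of its genes were high in unventilated jnk1-/- lungs. The difference between the control genotypes and the fall after ventilation in jnk1-/- mice are therefore given below as descriptions with no test, and counts of genes past a threshold in them are not used as evidence. The genotypes after ventilation share no array with that difference and were tested. Ventilation in wild-type mice shares the wild-type control arrays with it. Its adjusted p values over all probes are given, but they are not independent of the choice of the genes.

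Lung RNA was hybridized to 14 CodeLink arrays, and the p-values below measure the spread between these arrays. The groups were jnk1-/- mice ventilated for 8 hours (n = 4), unventilated jnk1-/- controls (n = 3), wild-type mice ventilated in the same way (n = 4) and unventilated wild-type controls (n = 3). The jnk1-/- mice lack c-Jun NH2-terminal kinase 1. Per the study's methods, the mice were adult, both genotypes had a C57/BL6 background with age and sex matched, the RNA came from the right lung, ventilation used a tidal volume of 10 ml/kg with a positive end-expiratory pressure of 2 cmH2O, and controls were killed directly after anesthesia. Exact ages are not given in the sources used here, and 1 wild-type ventilated label spells the strain c47/b.

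Levels are log2 intensities after normalization between arrays, and a difference of 1 on this scale is a factor of 2. The authors' own table has a lowest value of 3.12, which holds 24.5% of its values, and an array at that value is here said to lie at the authors' floor. Levels under about 3 therefore carry no order, and the size of a difference that rests on them depends on how low values are treated. For genes called while a whole group lay at that floor, a bound (at least so many fold) from the authors' values is given. Array medians lay between 5.74 and 5.87. Over the 12159 probes above that floor on all 14 arrays, jnk1-/- controls 1 and 2 differed from each other with an SD of 0.33, against 0.68 and 0.69 for either with control 3. Wild-type controls 2 and 3 differed with an SD of 0.38, against 0.48 and 0.58 for either with control 1. The Mapk8 probe, for the deleted kinase, averaged 2.75 and 1.55 in ventilated and control jnk1-/- lungs and 3.64 and 3.00 in ventilated and control wild-type lungs, too dim to check the labels. A list of 10 alveolar genes had array medians of 10.81 to 11.34 in ventilated jnk1-/- lungs, 11.16 to 11.35 in jnk1-/- controls, 10.57 to 10.76 in ventilated wild-type lungs and 10.57 to 10.85 in wild-type controls, so all groups carried the marker genes of lung.

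In such an epithelium the basal cells divide on the basement membrane and carry the keratins Krt5 and Krt14. Cells moving up switch to Krt4 and Krt13 in moist mucosa, or to Krt1 and Krt10 in skin. The uppermost cells assemble a cornified envelope, in which transglutaminases cross-link small proline-rich proteins, involucrin and related precursors, while desmosomes hold the cells together. Healthy lung has basal cells in its large airways but no stratified squamous lining. JNK1 phosphorylates c-Jun, a subunit of the transcription factor AP-1.

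Many of the squamous genes stood apart in the 3 unventilated jnk1-/- lungs and in no other group. The median over the 42 genes was 4.28 to 4.57 on the ventilated jnk1-/- arrays, 7.02 to 7.89 on the jnk1-/- control arrays, 3.91 to 4.34 on the ventilated wild-type arrays and 3.78 to 4.14 on the wild-type control arrays. In jnk1-/- controls against wild-type controls, 17 of the 42 genes passed an adjusted p of 0.05 (were called) as higher and 1 as lower in the limma fit, where 2.21% of all 19621 probes were higher and 1.81% lower. All 3 jnk1-/- controls lay above all 3 wild-type controls for 26 genes, where 16.1% of all probes did so. The median difference over the 42 genes was 1.50, beside 0.12 over all probes. These counts follow from the choice of the genes. In whole lung, fewer cells of a type and less RNA per cell cannot be told apart.

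**Figure D1:**
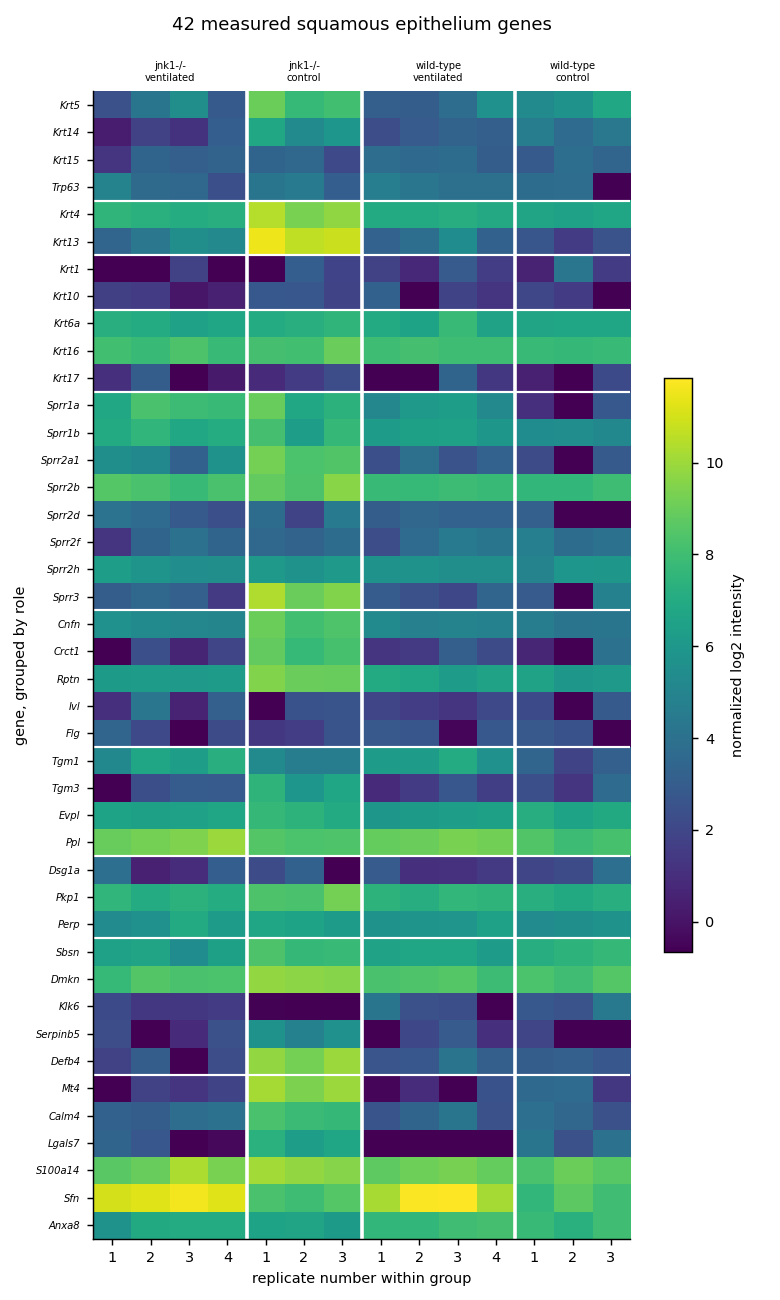
Normalized log2 intensity of the 42 measured squamous epithelium genes (rows, in the order of their roles) on the 14 arrays (columns, by group). Colors run from the lowest level (dark) to the highest (bright). The 3 jnk1-/- control columns are bright for Krt4, Krt13, Sprr3, Defb4 and Mt4, among others, and dark for Krt1, Krt10 and Krt17.

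The suprabasal keratins of moist mucosa were among the genes that differed most between the controls. Krt13, the partner of Krt4 in esophagus and tongue, had levels of 3.44, 4.32, 5.54 and 5.25 in ventilated jnk1-/- lungs, 11.54, 10.64 and 10.85 in jnk1-/- controls, 3.27, 3.88, 5.44 and 3.24 in ventilated wild-type lungs, and 2.68, 1.59 and 2.54 in wild-type controls. The jnk1-/- controls were far above every other array, and all 3 wild-type controls lay at the authors' floor, so that the jnk1-/- controls were at least 203-fold higher on the authors' values. Krt4 had levels of 7.53, 7.27, 7.09 and 7.21 in ventilated jnk1-/- lungs, 10.46, 9.35 and 9.76 in jnk1-/- controls, 6.97, 6.97, 7.12 and 6.89 in ventilated wild-type lungs, and 6.66, 6.51 and 6.68 in wild-type controls. Here too the groups did not overlap, and the difference between control genotypes was 3.24 on the log2 scale (SE 0.24).

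The skin counterparts of these keratins were too dim to compare between the groups. Krt1 had levels of -0.65, -0.65, 1.78 and -0.65 in ventilated jnk1-/- lungs, -0.65, 3.06 and 1.85 in jnk1-/- controls, 1.83, 0.78, 2.95 and 1.64 in ventilated wild-type lungs, and 0.55, 4.27 and 1.54 in wild-type controls, with 13 of the 14 arrays at the authors' floor. Krt10 lay at that floor on all 14 arrays, with levels of 1.74, 1.53, 0.12 and 0.50 in ventilated jnk1-/- lungs, 2.77, 2.76 and 1.92 in jnk1-/- controls, 3.24, -0.65, 1.91 and 1.23 in ventilated wild-type lungs, and 2.01, 1.58 and -0.65 in wild-type controls. Neither gene gave a level above background in most lungs of any group. Ivl (involucrin) and Flg (filaggrin, of the granular layer of skin) also lay at the floor on all but 1 array each.

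Basal-layer genes took a middle place. Krt5 had levels of 2.44, 4.18, 5.53 and 2.87 in ventilated jnk1-/- lungs, 9.04, 7.71 and 8.05 in jnk1-/- controls, 3.13, 3.03, 3.83 and 5.68 in ventilated wild-type lungs, and 5.29, 5.73 and 6.80 in wild-type controls. Krt5 was clearly present in wild-type controls and was higher in all 3 jnk1-/- controls, by 2.33 (SE 0.85), a difference that did not pass the threshold. Its partner Krt14 had levels of 0.28, 1.75, 1.16 and 3.08 in ventilated jnk1-/- lungs, 6.78, 5.32 and 5.92 in jnk1-/- controls, 2.31, 2.94, 3.34 and 3.15 in ventilated wild-type lungs, and 4.64, 3.70 and 4.37 in wild-type controls, with the same order of the groups. Trp63, the transcription factor that maintains basal cells, had levels of 4.94, 3.65, 3.53 and 2.40 in ventilated jnk1-/- lungs, 4.19, 4.47 and 3.07 in jnk1-/- controls, 4.68, 4.24, 3.94 and 3.94 in ventilated wild-type lungs, and 3.77, 3.80 and -0.65 in wild-type controls, which overlapped between the control genotypes. Krt15, another basal keratin, lay between 1.24 and 3.87 on all arrays.

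Of the 3 measured keratins that injured or hyperproliferative epithelium switches on, none was called in any of the 4 comparisons. Over all probes 0.612 to 12.1% were called in either direction, so no call among 3 genes is near those shares. Krt16 had levels of 8.08, 7.82, 8.36 and 7.84 in ventilated jnk1-/- lungs, 8.14, 8.05 and 9.00 in jnk1-/- controls, 7.94, 8.16, 7.94 and 7.97 in ventilated wild-type lungs, and 7.82, 7.68 and 7.78 in wild-type controls. Krt6a had levels of 7.24, 7.01, 6.48 and 6.73 in ventilated jnk1-/- lungs, 7.02, 7.22 and 7.52 in jnk1-/- controls, 7.0, 6.60, 7.76 and 6.56 in ventilated wild-type lungs, and 6.63, 6.74 and 6.70 in wild-type controls. Both were above the authors' floor on all arrays. In both the jnk1-/- controls lay above the wild-type controls without overlap, by 0.64 for Krt16 (SE 0.24) and by 0.56 for Krt6a (SE 0.31), while the ventilated lungs overlapped with the jnk1-/- controls. Krt17 lay at the authors' floor on all 14 arrays, with levels of 1.06, 3.03, -0.65 and 0.26 in ventilated jnk1-/- lungs, 0.83, 1.55 and 2.31 in jnk1-/- controls, -0.65, -0.65, 3.38 and 1.36 in ventilated wild-type lungs, and 0.51, -0.65 and 2.14 in wild-type controls.

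**Figure D2:**
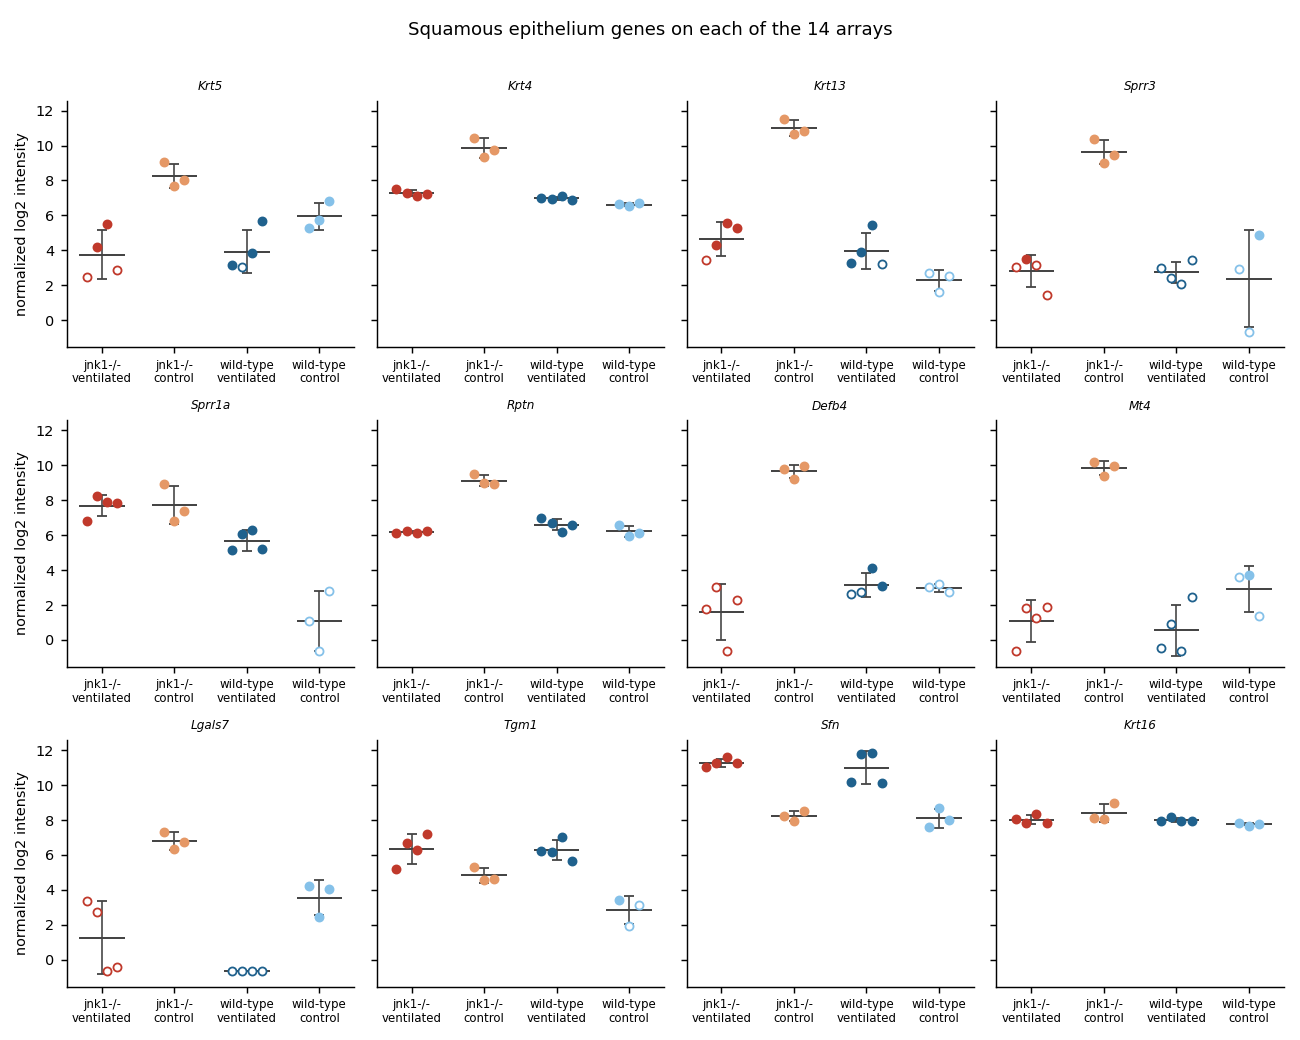
Normalized log2 intensity of 12 squamous epithelium genes on each array, by group. Points are single arrays (open points lie at the authors' floor), and lines with bars are the mean ± SD (n = 4 ventilated and 3 control mice per genotype). Krt13, Sprr3, Defb4 and Mt4 are high in the jnk1-/- controls alone, Sprr1a is low in the wild-type controls alone, and Sfn and, on average, Tgm1 are higher in ventilated lungs.

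The small proline-rich proteins are cross-linked into the cornified envelope, and 8 of the 10 listed were measured. Sprr3, which is typical of esophagus, had levels of 3.05, 3.51, 3.16 and 1.45 in ventilated jnk1-/- lungs, 10.36, 9.00 and 9.48 in jnk1-/- controls, 2.99, 2.44, 2.07 and 3.44 in ventilated wild-type lungs, and 2.94, -0.65 and 4.85 in wild-type controls. Sprr2a1 had levels of 5.59, 5.18, 3.24 and 5.75 in ventilated jnk1-/- lungs, 9.22, 8.30 and 8.43 in jnk1-/- controls, 2.38, 3.94, 2.55 and 3.28 in ventilated wild-type lungs, and 2.27, -0.65 and 2.87 in wild-type controls. In both the 3 jnk1-/- controls lay above all other arrays. Sprr2a1 held a middle level in 3 of 4 ventilated jnk1-/- lungs, and, at the floor in all wild-type controls, was at least 33.2-fold higher in jnk1-/- controls. Sprr1a, known to be induced by injury in several tissues, followed another order, with levels of 6.82, 8.27, 7.89 and 7.82 in ventilated jnk1-/- lungs, 8.92, 6.83 and 7.39 in jnk1-/- controls, 5.14, 6.09, 6.28 and 5.22 in ventilated wild-type lungs, and 1.09, -0.65 and 2.78 in wild-type controls. It was at the authors' floor in the 3 wild-type controls alone, so that jnk1-/- controls were at least 16.6-fold higher. Sprr1b had group means of 7.11 ± 0.33 in ventilated jnk1-/- lungs, 7.38 ± 0.96 in jnk1-/- controls, 6.28 ± 0.24 in ventilated wild-type lungs and 5.37 ± 0.16 in wild-type controls (SD, n = 4, 3, 4 and 3), the same order at a smaller size. Sprr2b was higher in jnk1-/- controls by 1.19 (SE 0.29), but kept its call under only 9 of 25 other settings, beside 18 of 25 for Sprr1b. Sprr2d, Sprr2f and Sprr2h overlapped between the control genotypes. The Sprr2 genes are close copies, and whether each probe reads 1 of them alone is uncertain.

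The Sprr genes, Crct1, Rptn, Ivl and Flg sit together on chromosome 3 in the epidermal differentiation complex, from 92215835 to 93399442 on GRCm38.p6. This stretch holds 63 annotated genes, 29 of them measured, 12 on the squamous list and 17 not. Of the 12 listed genes, 7 passed the threshold as higher in jnk1-/- controls than in wild-type controls. Of the 17 others, 7 did as well and none was lower, where 2.21% of all probes were higher and 1.81% lower. The count for the neighbors was noticed after the values were seen and was not tested. All 7 were Lce genes, which encode late cornified envelope proteins, and they included Lce1c, higher by 4.72, and Lce1l, higher by 4.01. The other Lce genes measured there (Lce1a1, Lce1a2, Lce1e, Lce1g and Lce3c) differed by 0.40 to 1.05 and did not pass the threshold. Kprp (3.11), Sprr2j-ps (1.82) and Tdpoz8 (0.44) did not pass it either. The neighbors Smcp (a sperm mitochondrial protein) and Sprr2g were not higher. Lce1l was also the only one of the 17 to pass the threshold for ventilation in wild-type lungs, where it was higher by 2.93 (adjusted p = 0.0356 from limma).

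**Figure D3:**
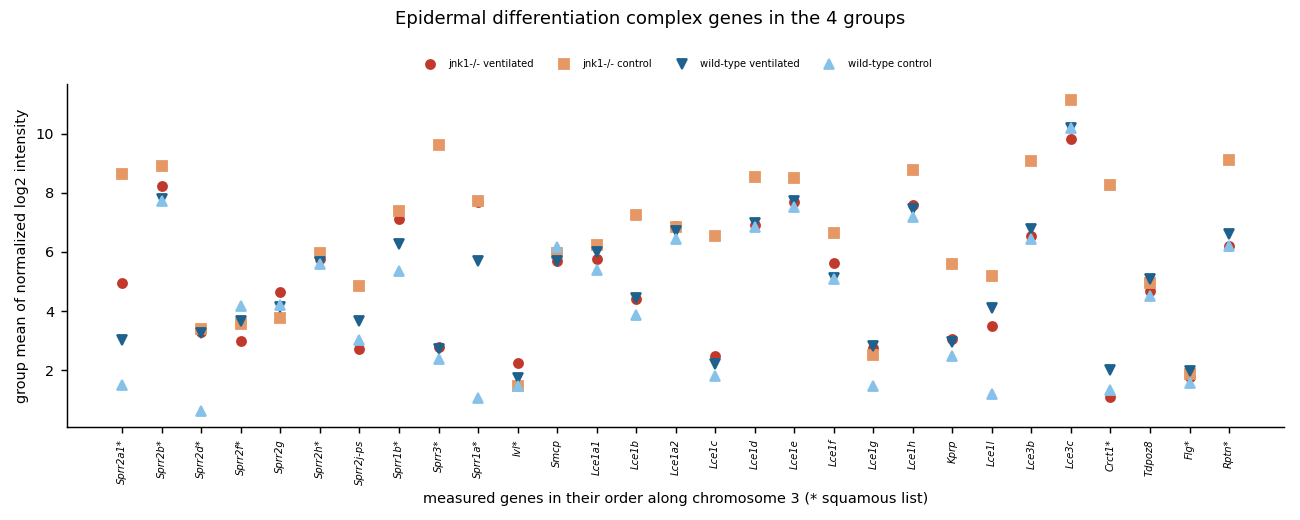
Group means of normalized log2 intensity (vertical axis) for the 29 measured genes of the epidermal differentiation complex, in their order along chromosome 3, with genes of the squamous list starred. Sprr2a1, Sprr3 and Crct1 stand apart in jnk1-/- controls, whereas Ivl and Flg lie low in all 4 groups.

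Promoter windows (250 bases before to 50 after an annotated start, RefSeq, GRCm38.p6) were taken for 30 of the 47 genes. They were searched on both strands for the AP-1 site TGANTCA, because JNK1 acts on c-Jun, and for the TATA box TATAAA, motifs that cannot overlap each other. The AP-1 letters were found in 16 of the 30 genes (53.3%), against 8.97% of all 27025 genes with a window, and the TATA letters in 16 of 30 (53.3%), against 15.7% of all genes. The Sprr2 copies are not independent in this count, as Sprr2d and Sprr2e share 264 of 300 bases. The 6 windows below are shown because their genes carry the 3 patterns of this list. Sprr1a and Sprr1b were on average lowest in wild-type controls, Sprr2b, Sprr3 and Rptn were on average highest in jnk1-/- controls, and Tgm1 was higher after ventilation in wild-type lungs. These patterns overlap, as Sprr1a and Sprr1b were also highest in jnk1-/- controls. Their means were 7.71 and 7.38 there, against 7.70 and 7.11 in ventilated jnk1-/- lungs. Capitals mark the AP-1 and TATA letters.
Sprr1a (chr3:92485832-92486131, minus strand): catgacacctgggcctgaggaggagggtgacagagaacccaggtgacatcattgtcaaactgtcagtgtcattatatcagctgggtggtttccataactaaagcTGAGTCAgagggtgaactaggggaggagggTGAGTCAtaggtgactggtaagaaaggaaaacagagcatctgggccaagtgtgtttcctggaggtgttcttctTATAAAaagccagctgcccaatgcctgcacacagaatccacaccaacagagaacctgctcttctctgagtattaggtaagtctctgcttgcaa
Sprr1b (chr3:92438730-92439029, minus strand): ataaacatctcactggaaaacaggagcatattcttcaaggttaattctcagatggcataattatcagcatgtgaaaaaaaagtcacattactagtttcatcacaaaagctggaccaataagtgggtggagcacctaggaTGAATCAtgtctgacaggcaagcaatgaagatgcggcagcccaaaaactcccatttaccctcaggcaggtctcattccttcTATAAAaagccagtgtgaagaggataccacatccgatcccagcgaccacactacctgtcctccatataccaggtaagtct
Sprr2b (chr3:92316455-92316754, plus strand): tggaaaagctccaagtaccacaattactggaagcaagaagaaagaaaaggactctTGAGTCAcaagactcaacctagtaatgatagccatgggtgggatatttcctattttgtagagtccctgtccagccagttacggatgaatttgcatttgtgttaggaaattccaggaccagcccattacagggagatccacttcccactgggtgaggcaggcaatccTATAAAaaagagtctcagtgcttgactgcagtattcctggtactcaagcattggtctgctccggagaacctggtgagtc
Sprr3 (chr3:92458671-92458970, minus strand): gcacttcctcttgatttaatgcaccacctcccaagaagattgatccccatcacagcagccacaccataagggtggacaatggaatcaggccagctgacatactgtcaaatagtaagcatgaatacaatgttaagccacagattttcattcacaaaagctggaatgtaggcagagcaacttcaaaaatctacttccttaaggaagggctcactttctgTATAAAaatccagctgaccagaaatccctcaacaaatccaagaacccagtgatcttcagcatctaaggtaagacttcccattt
Rptn (chr3:93393449-93393748, plus strand): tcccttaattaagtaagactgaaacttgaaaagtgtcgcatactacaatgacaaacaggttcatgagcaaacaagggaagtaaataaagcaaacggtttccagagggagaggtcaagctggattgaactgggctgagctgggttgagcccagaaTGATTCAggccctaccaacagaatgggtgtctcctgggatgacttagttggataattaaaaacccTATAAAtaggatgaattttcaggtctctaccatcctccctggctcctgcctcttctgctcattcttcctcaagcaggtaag
Tgm1 (chr14:55713443-55713742, minus strand): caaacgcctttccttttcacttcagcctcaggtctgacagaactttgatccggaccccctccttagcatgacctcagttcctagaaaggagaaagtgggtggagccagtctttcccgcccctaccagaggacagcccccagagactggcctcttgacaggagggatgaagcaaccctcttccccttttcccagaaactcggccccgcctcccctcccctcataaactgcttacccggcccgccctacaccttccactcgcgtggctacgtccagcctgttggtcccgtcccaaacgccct
The Sprr1a window holds the AP-1 letters at 146 and 116 bases before the start and TATAAA at 43, and Sprr1b holds them at 111 with TATAAA at 30. Sprr2b has a site at 195 and Rptn one at 96. The Sprr3 window has TATAAA at 33 but no AP-1 letters, and Tgm1 has neither in either of its windows. Genes with and without the AP-1 letters both held high and unchanged members. The 13 measured genes with the AP-1 letters had a median difference between the controls of 1.42 over all 13, and the 14 without them one of 2.78 over all 14. Both medians rest on the difference by which the list was chosen and include genes at the floor, so they are a description only. A part of AP-1 in these levels was not tested. These matches are letters in a window and not measured sites.

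The other precursors of the cornified envelope split into 3 genes high in jnk1-/- controls (Crct1, Rptn and Cnfn) and Ivl and Flg, which lay at the floor on 13 of 14 arrays each. Crct1, a cysteine-rich protein of the complex on chromosome 3, had levels of -0.65, 2.41, 0.65 and 1.97 in ventilated jnk1-/- lungs, 8.86, 7.74 and 8.22 in jnk1-/- controls, 1.22, 1.45, 3.15 and 2.19 in ventilated wild-type lungs, and 0.67, -0.65 and 4.02 in wild-type controls. Rptn (repetin) had levels of 6.15, 6.26, 6.12 and 6.21 in ventilated jnk1-/- lungs, 9.48, 8.99 and 8.92 in jnk1-/- controls, 7.0, 6.67, 6.20 and 6.56 in ventilated wild-type lungs, and 6.56, 5.97 and 6.12 in wild-type controls. Cnfn (cornifelin) had levels of 5.66, 5.28, 5.14 and 5.03 in ventilated jnk1-/- lungs, 9.01, 8.05 and 8.40 in jnk1-/- controls, 5.30, 4.77, 4.94 and 4.82 in ventilated wild-type lungs, and 4.62, 4.17 and 4.22 in wild-type controls. In each of the first 3 the 3 jnk1-/- controls lay above the 11 other arrays, and Rptn and Cnfn were well above background in every lung. The difference between control genotypes was 6.93 for Crct1, 2.91 for Rptn and 4.15 for Cnfn (SE 1.07, 0.24 and 0.27), and 1 of 3 wild-type controls carried Crct1 above the authors' floor.

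The enzymes and plakins that build the envelope did not move together. Tgm3, a transglutaminase of the upper layers, had levels of -0.65, 2.35, 2.98 and 2.93 in ventilated jnk1-/- lungs, 7.47, 5.90 and 6.70 in jnk1-/- controls, 0.89, 1.58, 2.73 and 1.64 in ventilated wild-type lungs, and 2.40, 1.26 and 3.72 in wild-type controls. It was thus measured above the floor in jnk1-/- controls and in 1 wild-type control only. Its call between the controls was kept under 15 of 24 other settings. Tgm1, the membrane-bound transglutaminase of keratinocytes, had levels of 5.18, 6.69, 6.29 and 7.20 in ventilated jnk1-/- lungs, 5.34, 4.58 and 4.63 in jnk1-/- controls, 6.25, 6.19, 7.04 and 5.66 in ventilated wild-type lungs, and 3.43, 1.93 and 3.16 in wild-type controls, with the ventilated lungs of both genotypes mostly on top. Ppl (periplakin, a scaffold of the envelope) had levels of 8.94, 9.22, 9.41 and 9.98 in ventilated jnk1-/- lungs, 8.52, 8.29 and 8.42 in jnk1-/- controls, 8.87, 9.00, 9.35 and 9.18 in ventilated wild-type lungs, and 8.46, 7.90 and 8.22 in wild-type controls, with every ventilated lung above every control of its own genotype. Its partner Evpl was lower in ventilated lungs, by 0.77 in jnk1-/- (SE 0.20) and by 0.66 in wild-type mice (SE 0.20, adjusted p = 0.0929 from limma).

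Among the adhesion genes, Pkp1 (plakophilin 1, of desmosomes) had levels of 7.59, 7.02, 7.39 and 7.08 in ventilated jnk1-/- lungs, 8.34, 8.26 and 9.21 in jnk1-/- controls, 7.43, 7.13, 7.64 and 7.47 in ventilated wild-type lungs, and 7.19, 6.91 and 7.23 in wild-type controls. The jnk1-/- controls were again on top, at a smaller distance of 1.49 from wild-type controls (SE 0.26). Perp, a desmosomal protein under p63 control, had levels of 5.38, 5.66, 6.96 and 6.26 in ventilated jnk1-/- lungs, 6.74, 6.61 and 6.22 in jnk1-/- controls, 5.74, 5.79, 5.88 and 6.48 in ventilated wild-type lungs, and 5.40, 5.59 and 5.76 in wild-type controls, with the jnk1-/- controls above the wild-type controls and the ventilated lungs overlapping with both. Dsg1a, a desmosomal cadherin, lay at or near the floor throughout, with levels of 3.91, 0.49, 0.93 and 3.08 in ventilated jnk1-/- lungs, 2.21, 3.23 and -0.65 in jnk1-/- controls, 2.93, 1.07, 1.12 and 1.46 in ventilated wild-type lungs, and 1.96, 2.22 and 3.90 in wild-type controls.

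Of the 5 secreted proteins measured, 3 were called higher in jnk1-/- controls and 1 lower, where 2.21% and 1.81% of all probes were. This count too follows from the choice of the genes. Defb4, a beta-defensin of surface epithelia, had levels of 1.77, 3.02, -0.65 and 2.31 in ventilated jnk1-/- lungs, 9.81, 9.22 and 9.94 in jnk1-/- controls, 2.64, 2.73, 4.14 and 3.12 in ventilated wild-type lungs, and 3.06, 3.19 and 2.73 in wild-type controls. It was at the floor in all 3 wild-type controls and all 4 ventilated jnk1-/- lungs, so the jnk1-/- controls were at least 75.3-fold higher than wild-type controls and ventilated jnk1-/- lungs at least 75.3-fold lower than jnk1-/- controls. Serpinb5 (maspin, a serpin of epithelial cells) had levels of 2.28, -0.65, 0.82 and 2.46 in ventilated jnk1-/- lungs, 5.70, 4.83 and 5.64 in jnk1-/- controls, -0.65, 2.05, 2.92 and 1.06 in ventilated wild-type lungs, and 1.96, -0.65 and -0.65 in wild-type controls, or at least 3.43-fold higher in jnk1-/- controls than in wild-type controls. Klk6, a kallikrein protease, ran the other way at the edge of detection, with levels of 2.17, 1.38, 1.37 and 1.57 in ventilated jnk1-/- lungs, -0.56, -0.65 and -0.65 in jnk1-/- controls, 4.18, 2.47, 2.33 and -0.65 in ventilated wild-type lungs, and 2.79, 2.57 and 4.40 in wild-type controls. The jnk1-/- controls all lay at the floor and were at least 1.25-fold lower than wild-type controls, and on the authors' values the difference was -0.32 and not called. Klk6 kept its call under 10 of 24 other settings, and Serpinb5 under 16 of 24. Dmkn (dermokine) was higher in jnk1-/- controls than in wild-type controls by 1.42 (SE 0.24), and Sbsn (suprabasin) by 0.54 (SE 0.32), which did not pass the threshold.

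The last 6 genes bind metal or calcium or belong to other families. Mt4, the metallothionein of stratified epithelia, had levels of -0.65, 1.82, 1.27 and 1.90 in ventilated jnk1-/- lungs, 10.17, 9.39 and 9.98 in jnk1-/- controls, -0.49, 0.92, -0.65 and 2.47 in ventilated wild-type lungs, and 3.63, 3.70 and 1.38 in wild-type controls. Calm4, a calmodulin-like protein of skin, had levels of 3.23, 3.05, 3.81 and 4.07 in ventilated jnk1-/- lungs, 8.24, 7.85 and 7.67 in jnk1-/- controls, 2.57, 3.38, 4.21 and 2.47 in ventilated wild-type lungs, and 3.91, 3.48 and 2.45 in wild-type controls. Both were high in the 3 jnk1-/- controls alone, and ventilated jnk1-/- lungs, all at the floor for Mt4, were at least 98.1-fold lower than jnk1-/- controls. Lgals7 (galectin-7) had levels of 3.35, 2.73, -0.65 and -0.40 in ventilated jnk1-/- lungs, 7.34, 6.34 and 6.73 in jnk1-/- controls, -0.65, -0.65, -0.65 and -0.65 in ventilated wild-type lungs, and 4.20, 2.43 and 4.06 in wild-type controls, so that all 6 controls carried it above the authors' floor and all 8 ventilated lungs lay at it. Sfn (stratifin, a 14-3-3 protein of epithelial cells) had levels of 11.01, 11.25, 11.60 and 11.24 in ventilated jnk1-/- lungs, 8.25, 7.95 and 8.54 in jnk1-/- controls, 10.18, 11.78, 11.84 and 10.15 in ventilated wild-type lungs, and 7.62, 8.70 and 8.00 in wild-type controls, with all ventilated lungs above all controls. S100a14 was higher in all 3 jnk1-/- controls than in wild-type controls, by 1.22 (SE 0.38), without passing the threshold. Anxa8 (annexin A8) was lower in jnk1-/- than in wild-type lungs, by 1.18 after ventilation (SE 0.29, adjusted p = 0.128 from limma) and by 1.24 between controls (SE 0.34). Neither difference passed the threshold, though the genotypes did not overlap.

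The jnk1-/- control mean was below the wild-type control mean for 6 of the 42 genes, namely Anxa8, Klk6, Dsg1a, Krt1, Sprr2f and Krt15. Of these only Klk6 passed the threshold.

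Within the jnk1-/- controls the order of the arrays was much the same for most of the genes called higher there. Replicate 1 was the highest of the 3 for 14 of these 17 genes and replicate 2 the lowest for 14 of them, with medians over the 17 genes of 9.01, 8.30 and 8.92 in replicates 1, 2 and 3. A share over all probes is not given, so this order is not shown to be particular to these genes.

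Genes of skeletal muscle were high in the same 3 lungs. Of 22 measured skeletal muscle genes, 13 passed the threshold as higher in jnk1-/- controls than in wild-type controls and none as lower, where 2.21% of all probes were higher and 1.81% lower. The list's median difference was 3.56, beside 0.12 over all probes. The summed linear level of this list was 1929 to 2642 in ventilated jnk1-/- lungs, 15075 to 22355 in jnk1-/- controls, 2054 to 3533 in ventilated wild-type lungs and 1935 to 6980 in wild-type controls. Acta1, the actin of skeletal muscle, had mean levels of 3.65, 11.01, 3.79 and 3.10 in the same order of groups. Tnnc2 (troponin C) had 3.15, 11.28, 3.79 and 4.59, and Myh4 (a fast myosin) had 0.01, 7.74, 1.02 and 1.47. Mylpf, a fast myosin light chain, averaged 4.15, 10.73, 4.64 and 5.89. For the 13 called muscle genes, replicate 2 was the lowest jnk1-/- control for 12, while replicate 1 was the highest for 6 and replicate 3 for 7. Here too a share over all probes is not given. The part of this list in the level of the squamous genes was not tested.

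Lists of other tissues are given with their calls between the controls, where 2.21% of all probes were called higher and 1.81% lower. In lists of 2 to 10 genes, none or 1 called is near that share and sets no list apart. None of 8 cardiac muscle, 10 cartilage, 2 thyroid, 6 thymus, 6 stomach and 10 hair follicle and melanocyte genes was called in either direction between the control genotypes. The hair keratin Krt33a and Gkn1, of stomach mucosa, lay at the authors' floor on all 14 arrays. Of 6 salivary and mucous gland genes 1 was higher and 1 lower in jnk1-/- controls, and of 10 alveolar genes 1 was higher. Of 7 smooth muscle genes 1 was called lower. Without overlap 3 of these 7 lay lower and 1 higher, where 11.6% and 16.1% of all probes did so. Of the 10 alveolar genes 5 lay higher without overlap and 0 lower. Of 10 genes of club and ciliated airway cells none was called there. Their array medians were 9.04 to 10.22 in ventilated jnk1-/- lungs, 11.05 to 11.45 in jnk1-/- controls, 9.83 to 11.67 in ventilated wild-type lungs and 11.63 to 11.99 in wild-type controls. The part of the airway genes in the lower Krt5 and Krt14 of ventilated lungs was not tested.

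A wider list of squamous genes outside the 47 behaved in part like them. This list was also drawn up with earlier results of these data known, so its counts are no independent support. Its genes called higher include Lce1d and Lce3b, already counted in the epidermal differentiation complex. Of 45 measured, 6 were called higher in jnk1-/- controls than in wild-type controls and 1 lower, where 2.21% and 1.81% of all probes were. The median difference was 0.65, beside 0.12 over all probes. Asprv1, a protease of the upper layers of skin, averaged 8.20 ± 0.61 in ventilated jnk1-/- lungs, 9.95 ± 0.56 in jnk1-/- controls, 7.85 ± 1.05 in ventilated wild-type lungs and 6.32 ± 0.55 in wild-type controls (SD, n = 4, 3, 4 and 3). Gsdma, a gasdermin of upper epithelia, averaged 4.76 ± 0.55, 7.01 ± 0.54, 4.45 ± 0.40 and 3.52 ± 0.52 in that order. Jup (plakoglobin, of desmosomes and adherens junctions) was the one lower, with 6.68 ± 0.47, 4.43 ± 0.18, 7.07 ± 0.75 and 6.79 ± 0.36. Ly6d, a surface protein of keratinocytes and B cells, was present in the controls of both genotypes, with 6.08 ± 0.77, 9.05 ± 0.25, 6.11 ± 0.21 and 8.54 ± 0.11.

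**Figure D4:**
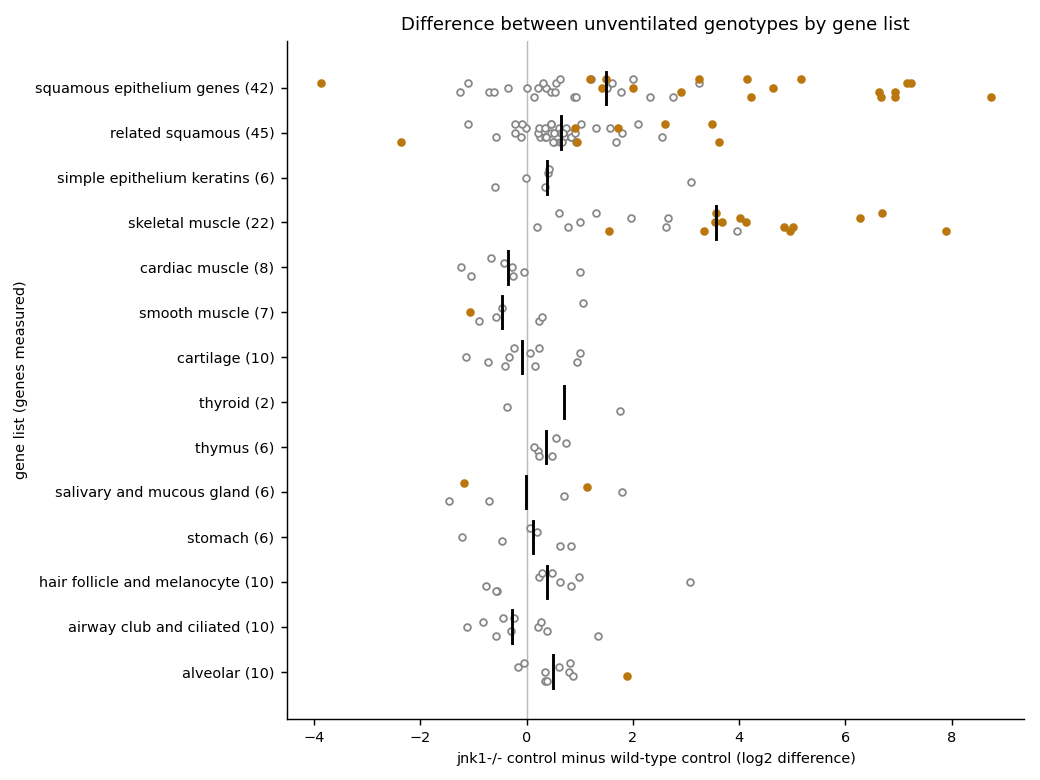
Log2 difference of jnk1-/- controls minus wild-type controls for every measured gene of each list (horizontal axis), with filled points for genes past an adjusted p of 0.05 in limma and a black bar at the list's median. The squamous and skeletal muscle lists reach furthest to the right, with medians of 1.50 and 3.56.

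Between ventilated and control wild-type lungs 4 of the 42 genes were called, where 3.43% of all probes were. As the wild-type control arrays also enter the difference by which the list was chosen, the calls are values of the fit and no independent support. Of the 42 genes, 3 rose and 1 fell in ventilated wild-type lungs, where 2.2% of all probes rose and 1.23% fell. The median difference over the genes was 0.28, beside 0.11 over all probes, and 0.027 on the authors' values. All 4 ventilated lungs lay above the 3 controls for 10 genes and below them for 4, where 12.5% and 9.54% of all probes did so. By the methods' t-test none of the 4 calls held (adjusted p of 0.130 for Tgm1, 0.125 for Sfn, 0.248 for Sprr1a and 0.195 for Lgals7). That test called 2 of all 19621 probes in this comparison. Tgm1 rose by 3.44 on the log2 scale (SE 0.50, adjusted p = 0.00453 from limma), with 2 of 3 wild-type controls at the authors' floor. Sfn rose by 2.88 (SE 0.44, adjusted p = 0.00583 from limma) and was above the authors' floor on all 14 arrays. In a fit of these 7 arrays alone it missed the threshold (adjusted p = 0.0609 from limma). Sprr1a rose by 4.61 (SE 0.73, adjusted p = 0.00648 from limma), and as all 3 controls lay at the floor, the ventilated lungs were at least 4.43-fold higher on the authors' values. On those values the Sprr1a difference was 2.15 and no longer passed (adjusted p = 0.0886 from limma).

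The 1 gene that fell was Lgals7, lower by 4.22 in ventilated wild-type lungs (SE 0.88, adjusted p = 0.0241 from limma). All 4 ventilated lungs lay at the floor, which makes them at least 1.53-fold lower on the authors' values. This call was lost without wild-type control 1 or 3 and without any one of the 4 ventilated lungs (adjusted p from 0.0514 to 0.0909 in limma), and also on the authors' values (difference of -0.62, adjusted p = 0.128 from limma). Ppl missed the threshold with a rise of 0.91 (SE 0.24, adjusted p = 0.0615 from limma), and passed it when dim probes were left out (adjusted p = 0.0350). Of the 17 genes called higher in jnk1-/- controls, Sprr1a alone was called for ventilation in wild-type lungs. Among the others Krt13 differed by 1.69 (SE 0.60, adjusted p = 0.143), Krt4 by 0.37 (SE 0.23, adjusted p = 0.406) and Sprr3 by 0.36 (SE 1.0, adjusted p = 0.885 from limma). Krt5 differed by -2.02 (SE 0.79, adjusted p = 0.18 from limma). In the wider squamous list Krt80, a keratin of many epithelia, rose by 0.92 (adjusted p = 0.0350), while Ly6d fell by 2.43 (adjusted p = 0.00360) and the protease Klk8 by 1.01 (adjusted p = 0.0173, all from limma).

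In jnk1-/- lungs most of the genes that had been high were low after ventilation, a comparison described only, since it shares the jnk1-/- control arrays by which the genes were known. In this fit 19 of the 42 genes passed the threshold as lower and 2 as higher, where 5.06% of all probes were lower and 7.04% higher. Of the 17 genes called higher in the controls, 14 were among those 19 and none was called higher. The other 5 of the 19 were Krt5, Krt14, Evpl, Sbsn and Lgals7. The largest differences were those of Mt4 (-8.76), Defb4 (-8.05) and Crct1 (-7.18), followed by Sprr3 (-6.82) and Krt13 (-6.37). Crct1 was at least 24.3-fold, Lgals7 at least 15.8-fold, Tgm3 at least 9.58-fold, Serpinb5 at least 3.43-fold and Krt14 at least 6.25-fold lower in ventilated jnk1-/- lungs than in jnk1-/- controls. The 3 genes called higher in controls that were not called lower after ventilation were Sprr1a, Sprr1b and Sprr2b, with differences of -0.02, -0.26 and -0.70. Sfn and Ppl were higher in ventilated jnk1-/- lungs than in jnk1-/- controls, by 3.03 (SE 0.44) and 0.98 (SE 0.24), beside 2.88 and 0.91 in wild-type lungs.

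**Figure D5:**
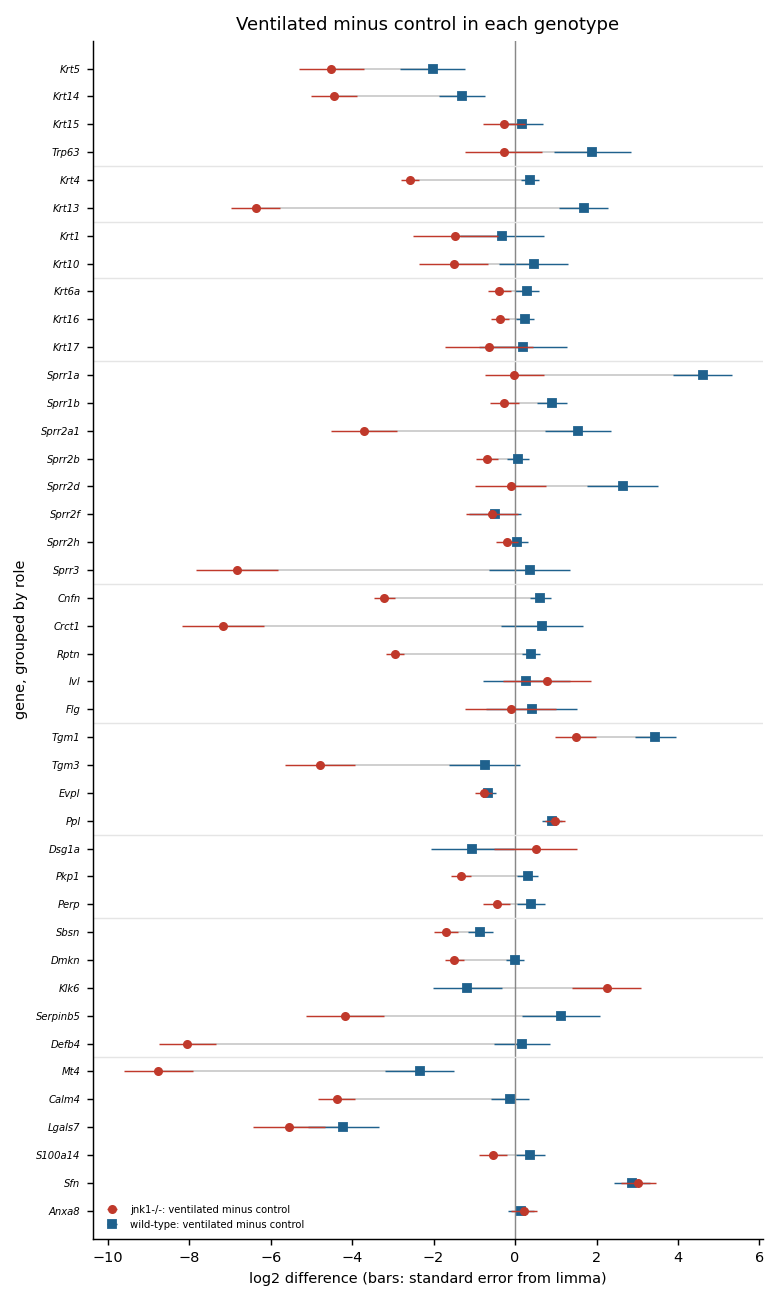
Log2 difference of ventilated minus control lungs for each of the 42 genes (horizontal axis, bars are the SE from limma) in jnk1-/- (circles) and wild-type (squares) mice. Krt13, Sprr3, Crct1, Defb4 and Mt4 lie far to the left in jnk1-/- mice, whereas Sfn and Ppl lie at similar values in both genotypes.

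After ventilation no squamous gene was called between the genotypes. The difference is between the ventilated arrays, with the spread taken from all 14. None of the 42 genes passed an adjusted p of 0.05 in limma between ventilated jnk1-/- and ventilated wild-type lungs, where 0.612% of all probes did (0.301% as higher and 0.311% as lower). At an unadjusted p under 0.05 there were 7 genes in limma, of 2097 among all 19621 probes. The methods' t-test after adjustment also called none of the 42 genes, and 17 of all probes. The median difference over the genes was 0.06. Sprr1a was the furthest apart, higher by 2.01 in ventilated jnk1-/- lungs (SE 0.67, adjusted p = 0.277 from limma), and all 4 of them lay above all 4 ventilated wild-type lungs. The same was true of Sprr1b, with a difference of 0.84 (SE 0.33, adjusted p = 0.388 from limma), and the opposite of Anxa8, where 3.83% of all probes had no overlap as higher and 3.02% as lower. When the close pairs of control arrays were averaged, Sprr1a alone passed (adjusted p = 0.0460 from limma). Krt13 differed by 0.68 (SE 0.56) and Krt4 by 0.29 (SE 0.21), beside 8.74 and 3.24 between the controls.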

How the data were processed

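The deposited values are log2 intensities from 1-colour CodeLink UniSet I 20K arrays, stained with Cy5. Each array's own file holds unnormalized log2 values as deposited, in which 1.86 to 10.7% of an array's spots share the lowest value, and the authors' table holds log2 values after cyclic loess with a floor at 3.12. Quality flags and batches are not given in the sources used here, and precision is limited by the number of arrays. The arrays' files were normalized again by cyclic loess over all pairs (span 0.7, 3 rounds), with low values raised to the 1st percentile (-0.65). Of 19621 probes, 15353 named 1 gene, 91 several and 4177 none. Group means were fitted over all 14 arrays with limma 3.58.1 in R 4.3.3, with Benjamini-Hochberg adjustment over all probes at 0.05.

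The members, the lists and the rules were chosen with earlier results of these data known. Values on every array are given for up to 3 genes per role with the widest range of group means and for genes called in a tested comparison. In the muscle and wider squamous lists, the 4 genes of widest range are given. On simulated data for the ventilated genotypes (19621 probes, 50 changed at each size), 5 genes changed by 1 on the log2 scale were recovered, 29 changed by 2, 46 by 4 and 42 by 6. Alternatives were quantile and fast loess normalization, the authors' values, a higher floor, a filter on dim probes, the mean over a gene's probes, a fit of the compared groups alone, the methods' t-test, array weights, the replicate number as a block, averaged close pairs of arrays, and each array left out. Sequences came from RefSeq promoters of GRCm38.p6.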

Additional observations from a re-analysis of the deposited data

Results flagged for a closer look

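The highest or lowest of 4 ventilated arrays stood far from the other 3 in 3 of 60 groups checked by Dixon's test, where chance flags about 1 in 20. Krt1 was 1.78 in ventilated jnk1-/- lung 3, with the other 3 at the lowest level and all 4 at the authors' floor. Krt16 was 8.16 in ventilated wild-type lung 2, above 3 lungs at 7.94 to 7.97. The median over the 42 squamous genes was 4.28 in ventilated jnk1-/- lung 2, below the 3 others, which reached 4.57.

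For 6 of 30 items checked, every ventilated jnk1-/- lung lay below the mean of its controls while every ventilated wild-type lung lay above the mean of its own. The difference between the genotypes was not tested. Krt13, Sprr2a1, Cnfn, Krt4 and Pkp1 are among the 17 genes called higher in jnk1-/- controls. Their falls start from the control arrays by which the list was chosen, so the opposite directions are not independent of that choice. A share over all probes is not given. Krt13 differed by -6.37 in jnk1-/- and 1.69 in wild-type lungs. Sprr2a1 differed by -3.71 and 1.54, Cnfn by -3.21 and 0.62, Krt4 by -2.58 and 0.37, Pkp1 by -1.33 and 0.31, and Krt16 by -0.37 and 0.24.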

How the results depend on the processing

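Of 43 single-gene calls over the 4 comparisons, each recomputed under up to 25 settings, 940 values kept direction and call, 126 kept direction without passing the threshold and none reversed. For jnk1-/- against wild-type controls, 17 genes higher became 7 in a fit of those groups alone and 0 by the methods' t-test. That test called 0 of all 19621 probes in this comparison. With 1 array left out the 17 ranged from 12 to 19. The 1 gene lower became 2 with quantile normalization, fast loess or array weights and 0 with the higher floor, the 2 groups alone, the t-test or close pairs averaged (0 to 2 with 1 array left out). The median of 1.50 became 1.14 on the authors' values and 1.37 to 1.75 with 1 array left out.

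For ventilation in wild-type lungs, 3 genes higher became 6 with array weights and 0 by the t-test (3 to 4 with 1 array left out). The 1 lower, Lgals7, became 0 with dim probes left out, by the t-test, with the replicate block or with close pairs averaged, and 3 with array weights (0 to 1 with 1 array left out). The median of 0.28 became 0.027 on the authors' values. For ventilation in jnk1-/- lungs, 2 genes higher became 1 by the t-test, with the replicate block or with close pairs averaged. The 19 lower became 4 by the t-test, which called 89 of all 19621 probes there. With 1 array left out these were 1 to 3 and 16 to 20, with a median of -0.99 to -0.74. For the ventilated genotypes, 0 genes higher became 1 (Sprr1a) with close pairs averaged. The cause of these changes was not tested. Of the 42 genes, 2 lay at the authors' floor on all 14 arrays and 17 above it on all.

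Same-numbered arrays of different groups did not vary together (correlations of -0.05 to 0.09 over 13 pairs), so the numbers were not taken as pairs. With the replicate block Sprr1b, Sprr2b and Serpinb5 lost their calls between the controls, Evpl and Ppl theirs in jnk1-/- ventilation and Lgals7 its call in wild-type ventilation, and no other single-gene call was lost.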

Other observations

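Ventilation in wild-type lungs also moved a keratin of simple epithelia. Krt18 rose by 0.65 (SE 0.15, adjusted p = 0.0408 from limma). Its partner Krt8 differed by 3.40 (SE 0.85, adjusted p = 0.0502 from limma) without passing the threshold, and averaged 5.61 ± 0.20 in ventilated wild-type lungs, against 2.21 ± 2.49 in wild-type controls (SD, n = 4 and 3). Bpifa1, a secreted protein of the upper airways, was lower by 2.24 in ventilated jnk1-/- than in ventilated wild-type lungs (SE 0.44, adjusted p = 0.049 from limma), the only call among 10 genes of club and ciliated airway cells in that comparison.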
